A study of Mus musculus with 9 samples.

Results

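The 30 genes described here encode enzymes that make nucleotides, serine and one-carbon units. They are a fixed list of pathway genes, placed by the RefSeq annotation of mouse assembly GRCm38. The list was chosen with earlier results of these data known. The background was 17492 protein-coding genes with a listed start, 28 of the 30 among them. The 30 genes were divided by role into de novo purine synthesis (6 genes), the branch to guanine nucleotides (3), ribose phosphate supply (2), de novo pyrimidine synthesis (4), deoxynucleotide supply (7), serine synthesis (3) and folate metabolism (5). Peaks were read within 1 kb of each gene's start, and over the H3K4me3 peak that reaches that window. The starts of Dhodh and Pfas were not listed, so these genes were read at the gene end that carries an H3K4me3 peak, which makes the H3K4me3 call of these 2 genes part of their choice.

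C57BL/6J mice with T-cell lymphomas in the thymus were the source of the chromatin, and in this model MYCN, the gene of the transcription factor N-MYC, drives the tumour. The series asks about EZH2 at active genes in these cells. The age of the animals, the promoter that drives MYCN and the animal behind each library are not given in the sources used here. The 7 groups were immunoprecipitations of EZH2, SUZ12, H3K27me3, N-MYC, p300, H3K27ac and H3K4me3, each with 1 library made by ChIPmentation (chromatin immunoprecipitation in which a transposase adds the sequencing adapters on the bound chromatin), and 2 further samples were inputs, not analysed here. With 1 library per antibody no difference has a replicate check, no p-value is given, and the depth behind a peak is unknown. A missing peak means that no call passed the authors' threshold, and the lists ran from 9798 peaks (N-MYC) to 123056 (H3K27me3). As a check of the label, 11 of 11 T-cell marker genes with a listed start carried both H3K4me3 and H3K27ac, against 1 of 3 B-cell markers (Cd79a), 0 of 4 myeloid markers and 1 of 6 markers of thymic epithelium and stroma (Epcam).

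Cells build purines on a ribose phosphate scaffold and pyrimidines as a ring that is then joined to it, and both routes draw on amino acids and bicarbonate. Serine gives a carbon to tetrahydrofolate, and the folate cycle hands it on to purine and thymidylate synthesis. Dividing cells such as lymphoma cells draw heavily on these routes, and many of the genes, Cad among them, are textbook targets of the MYC family, whose members bind the E-box CACGTG together with MAX. EZH2 is the methyltransferase of Polycomb repressive complex 2, SUZ12 is a core subunit of the complex, and H3K27me3 is the mark it deposits. H3K4me3 marks active promoters, and the acetyltransferase p300 and the mark H3K27ac accompany active promoters and enhancers.

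The sequence searched for an E-box was the 250 bases before and 50 bases after each start, from RefSeq (GRCm38.p6), on both strands. It was given for 28 of the 30 genes (all but Dhodh and Pfas). CACGTG was found at 5 of the 28 (Paics, Atic, Impdh2, Tyms and Nme1), or 17.9%, against 8.91% of all protein-coding genes and 12.2% of those with H3K4me3 at the start. With the related CACGCG counted too, the share was 8 of 28 (28.6%) against 20.8% of all genes and 30.9% of those with H3K4me3, so the order against the marked genes turned. These are stretches upstream of the start that hold CACGTG, 1 for each gene, shown 5′ to 3′ on the strand of the gene, with the E-box in capitals and up to 20 bases on each side. They were picked after the matches were known.
Paics, chr5:76951079-76951124, strand +: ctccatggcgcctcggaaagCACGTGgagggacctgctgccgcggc
Atic, chr1:71557129-71557155, strand +: gaggggcgggacctcggggtCACGTGg
Impdh2, chr9:108560306-108560351, strand +: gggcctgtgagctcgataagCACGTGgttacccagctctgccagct
Tyms, chr5:30073661-30073706, strand -: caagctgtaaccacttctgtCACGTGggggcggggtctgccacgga
Nme1, chr11:93968273-93968310, strand -: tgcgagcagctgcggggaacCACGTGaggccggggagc
The E-box began 203 bases before the start at Paics, 110 at Impdh2, 61 at Tyms, 18 at Nme1 and 7 at Atic. Nme1 held another CACGTG, not printed, 29 bases before its other listed start at 93968025. All 5 genes had an N-MYC peak, with fold enrichments of 15.9 at Paics, 13.4 at Atic, 12.5 at Nme1, 6.94 at Impdh2 and 4.34 at Tyms, so the motif stood at strong and weak peaks. Their median was 12.5, and that of the 22 genes with a peak and without the motif in the window was 7.25, over a range from 2.81 to 20.9. With CACGCG counted too the order turned, with a median of 6.87 at the 8 genes with either motif and 7.68 at the 19 called genes with neither. Paics and Ppat share 1 N-MYC peak, and Ppat has neither motif in its window. In both comparisons this peak thus counts on each side. Over all genes with H3K4me3, an N-MYC peak was called at 78.0% of those with CACGTG in the window and at 63.0% of those without it. With either motif it was called at 78.2%, and with neither at 58.9%.

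The genes with the highest N-MYC peak (Ctps), the lowest N-MYC peak (Rrm2), the highest EZH2 peak (Gmps) and no N-MYC peak (Tk1) had no CACGTG in the window, and neither had they CACGCG. Their 250 bases before the start follow on the strand of the gene, with every CpG in capitals, because CpG-rich promoters are the usual sites of H3K4me3.
Ctps, chr4:120570277-120570526, strand -: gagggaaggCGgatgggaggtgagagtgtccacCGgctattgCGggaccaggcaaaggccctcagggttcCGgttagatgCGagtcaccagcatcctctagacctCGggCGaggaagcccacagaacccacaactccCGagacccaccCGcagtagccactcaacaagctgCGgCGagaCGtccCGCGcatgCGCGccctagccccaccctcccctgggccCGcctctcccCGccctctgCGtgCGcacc
Rrm2, chr12:24708004-24708253, strand +: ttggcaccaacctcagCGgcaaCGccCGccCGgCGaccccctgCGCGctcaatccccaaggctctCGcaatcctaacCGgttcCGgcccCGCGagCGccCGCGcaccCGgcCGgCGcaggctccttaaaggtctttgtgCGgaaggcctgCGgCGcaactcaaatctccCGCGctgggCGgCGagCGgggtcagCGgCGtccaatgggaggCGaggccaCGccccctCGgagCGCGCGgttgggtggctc
Gmps, chr3:63975893-63976142, strand +: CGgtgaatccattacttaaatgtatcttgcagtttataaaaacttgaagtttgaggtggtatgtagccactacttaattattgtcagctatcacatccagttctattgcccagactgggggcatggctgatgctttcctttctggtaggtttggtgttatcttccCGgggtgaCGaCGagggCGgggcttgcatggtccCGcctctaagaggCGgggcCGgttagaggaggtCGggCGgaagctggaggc
Tk1, chr11:117826015-117826264, strand -: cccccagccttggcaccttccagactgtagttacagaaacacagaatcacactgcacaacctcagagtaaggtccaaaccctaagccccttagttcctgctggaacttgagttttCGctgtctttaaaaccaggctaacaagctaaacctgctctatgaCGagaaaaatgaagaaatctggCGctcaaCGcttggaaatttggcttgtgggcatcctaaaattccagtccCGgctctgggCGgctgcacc
These stretches hold 20 CpGs at Ctps, 34 at Rrm2, 10 at Gmps and 6 at Tk1. Of these 4 promoters, the one with the most CpGs belonged to the gene with the weakest N-MYC peak, and the one with the fewest to the gene with none. In the whole window of 300 bases the 28 genes had a median of 17 CpGs (range 3 to 40), against 22 for genes with H3K4me3 and 13 for all protein-coding genes. Many N-MYC summits lay outside the sequence searched: 7 of the 27 with a placed start were inside it.

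Nearly every gene of the set had the peaks of an active promoter, and none had a SUZ12 or H3K27me3 peak. H3K4me3 and H3K27ac were called at 30 of 30 genes, against 52.1% and 52.2% of all protein-coding genes. p300 was called at 29 (96.7%, 95% Wilson interval 83.3 to 99.4%), with Prps1 as the exception, against 40.6%. N-MYC was called at 29 (96.7%, 83.3 to 99.4%), with Tk1 as the exception, against 34.0%. Both factors were thus found at all but 1 gene each. EZH2 was called at 24 (80.0%, 62.7 to 90.5%), against 46.0%, and was missing at Atic, Impdh1, Dhodh, Nme2, Shmt1 and Shmt2. SUZ12 and H3K27me3 were called at 0 of 30 (upper limit of the interval 11.4%), against 12.8% and 24.3%. The intervals cover counting error only. Ppat and Paics share 1 promoter and its peaks, so they count as 2 genes and as 1 site.

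Since the genes all had H3K4me3, they were also set beside the 9119 protein-coding genes with H3K4me3 at the start. There H3K27ac was called at 93.4%, p300 at 77.5%, N-MYC at 64.8%, EZH2 at 74.0%, SUZ12 at 9.60% and H3K27me3 at 14.5%. The shares for p300 and N-MYC lay below the intervals of the set, and that for H3K27me3 lay above its upper limit of 11.4%. Those for H3K27ac (interval 88.6 to 100%), SUZ12 (0 to 11.4%) and EZH2 lay inside theirs, that for EZH2 near the 80.0% of the set. Without the genes that carry SUZ12 or H3K27me3 the shares were 98.5% for H3K27ac, 85.4% for p300, 70.1% for N-MYC and 73.0% for EZH2. There the share for N-MYC again lay below the interval of the set, whereas those for H3K27ac, p300 and EZH2 lay inside theirs. The lists of H3K4me3, H3K27ac, p300, N-MYC and EZH2 are called the 5 active lists here, although EZH2 belongs to a Polycomb complex. Polycomb peaks here are those of SUZ12 or H3K27me3 only. All 5 active lists without Polycomb peaks were found at 22 of the 30 genes (73.3%, 55.6 to 85.8%). The combination was found at 48.7% of the marked genes, 57.1% of those free of Polycomb peaks, which lies inside the interval, and 25.4% of all genes. The count of 22 depended on the reading. It was 14 with every list limited to its 9798 most significant peaks, and 7 where each peak had to cover the start base. The background shares of this combination were not read at those settings, so these counts cannot be set beside the shares above. Reading the whole H3K4me3 peak in place of the window changed no call, and it raised 1 value, p300 at Tk1, from 4.15 to 4.65.

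**Figure D1:**
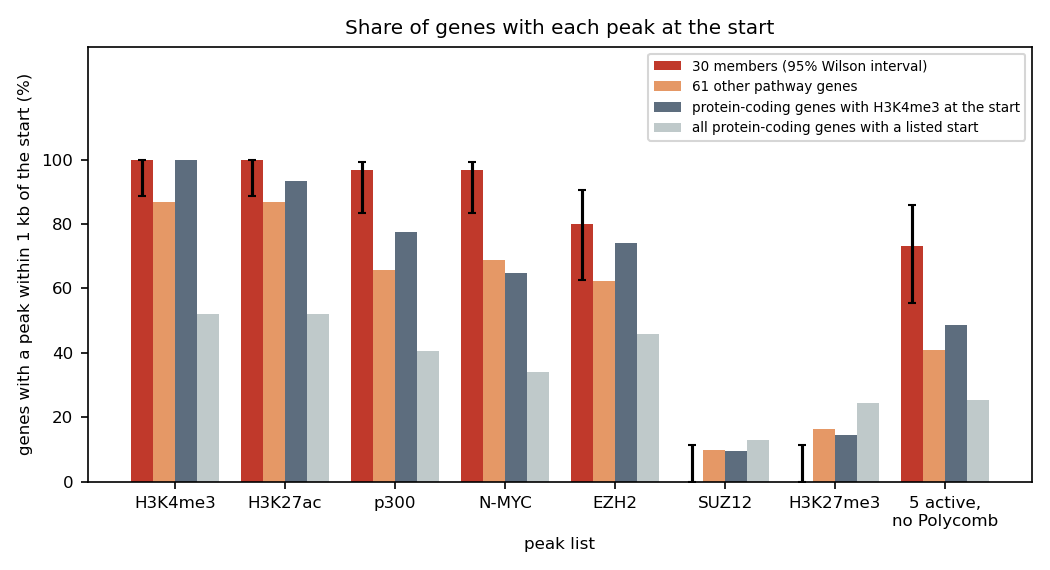
Percentage of genes with a peak of each list within 1 kb of the start (y axis) for the 30 genes of the set (red, with 95% Wilson intervals), 61 other genes of the pathways (orange), protein-coding genes with H3K4me3 at the start (dark grey) and all protein-coding genes with a listed start (light grey). The red bars reach 96.7 to 100% for the first 4 lists and 80.0% for EZH2, and they are at 0 for SUZ12 and H3K27me3.

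The fold enrichment, the authors' ratio of a peak over its background, is on another scale for each antibody and is compared below only between genes of the same list. Over the called genes of the set, the median fold enrichment was 34.1 for H3K4me3 (range 6.93 to 41.9), against 26.6 over all genes called. It was 13.6 for H3K27ac (5.05 to 22.8) against 12.4, and 6.00 for p300 (3.66 to 10.7) against 5.40. N-MYC had a median of 7.0 (2.81 to 20.9) against 6.01, and EZH2 one of 6.05 (3.25 to 8.80) against 5.83. Above the median of all genes called lay 23 of 30 H3K4me3 values (49.9% of all), 18 of 30 for H3K27ac (50%), 21 of 29 for p300 (48.5%), 21 of 29 for N-MYC (50%) and 13 of 24 for EZH2 (49.4%). The lists differed at their upper end: 9 of the 29 N-MYC peaks lay above the 90th percentile of all genes called (a fold enrichment of 10.3), where 10% of all genes lie. Ppat and Paics, with their shared peak, are both counted among these 9. For EZH2 the count was 0 of 24 (10% of all), for H3K27ac 1 of 30 (9.97%), for p300 3 of 29 (9.68%) and for H3K4me3 5 of 30 (9.94%). The EZH2 background also holds genes with Polycomb peaks: 5684 of its 8047 genes had H3K4me3 and neither SUZ12 nor H3K27me3. The percentile was not read within those 5684 genes.

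**Figure D2:**
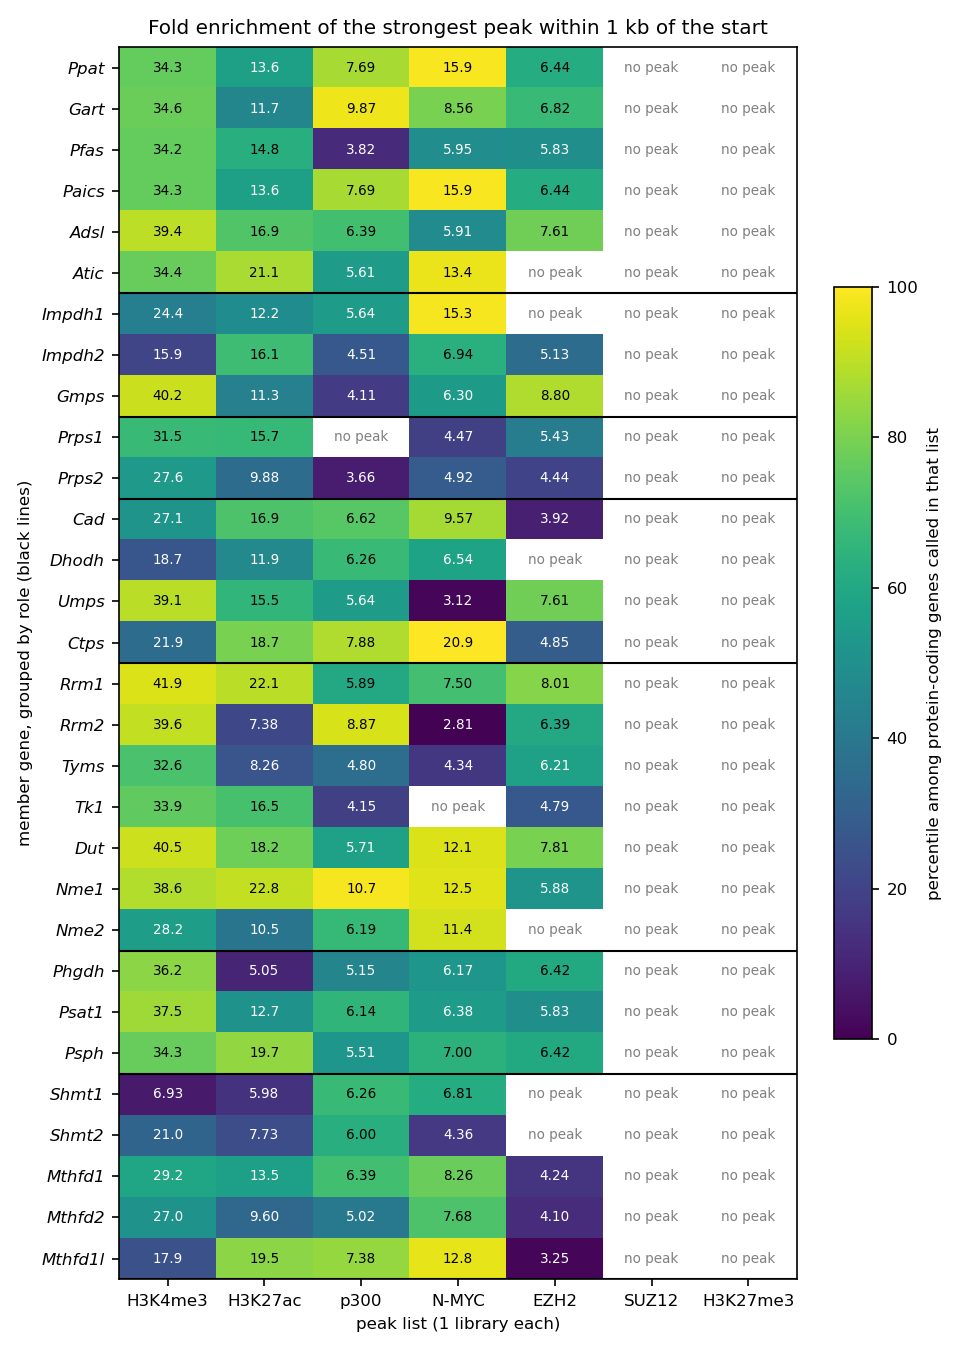
Fold enrichment of the strongest peak of each list (columns, 1 library each) within 1 kb of the start of each gene (rows, grouped by role between black lines). The colour gives the percentile of that value among all protein-coding genes called in the same list, and white cells have no peak. In the N-MYC column the highest values are at Ctps, Ppat with Paics, and Impdh1, and SUZ12 and H3K27me3 are empty.

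The genes of de novo purine synthesis had similar H3K4me3, with fold enrichments from 34.2 at Pfas to 39.4 at Adsl. Ppat (chromosome 5, start at 76951578) is the amidotransferase that opens the pathway, and Paics (start at 76951302) acts at a middle step. They lie on opposite strands with starts 276 bases apart, and each start lies inside the other gene. Their shared site had H3K4me3 of 34.3 over 4818 bp, H3K27ac of 13.6, p300 of 7.69, N-MYC of 15.9 and EZH2 of 6.44. That N-MYC peak ranked 48 of the 5946 genes called. Atic (chromosome 1, start at 71557156), which closes the ring to inosine monophosphate, had an N-MYC peak of 13.4 and H3K27ac of 21.1, and its nearest EZH2 peak was 95.6 kb away. Gart (chromosome 16, start at 91646972), a trifunctional enzyme of the early steps, had N-MYC of 8.56, p300 of 9.87 and EZH2 of 6.82. Its start lies 852 bases from that of Son on the other strand, and its p300 and N-MYC summits, at −914 and −775 bp from the Gart start, were on the side of Son. Adsl (chromosome 15, start at 80948490), which releases fumarate in purine synthesis, had N-MYC of 5.91 and EZH2 of 7.61. Pfas (chromosome 11, gene end at 69008460), which adds a nitrogen from glutamine, had N-MYC of 5.95, EZH2 of 5.83 and a low p300 peak of 3.82. N-MYC thus spanned from 5.91 to 15.9 within the pathway over a narrow range of H3K4me3.

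In the guanine branch the IMP dehydrogenases, which commit inosine monophosphate to guanine nucleotides, differed. Impdh1 (chromosome 6) had N-MYC of 15.3, H3K4me3 of 24.4, p300 of 5.64 and its nearest EZH2 peak 31.2 kb away. Impdh2 (chromosome 9, start at 108560436) had N-MYC of 6.94, H3K4me3 of 15.9, p300 of 4.51 and EZH2 of 5.13. Impdh1 has 2 listed starts 4067 bases apart: the strong N-MYC peak was at the inner one, 29212297, where H3K4me3 was 16.7, and the outer one, 29216364, had N-MYC of 3.46 with H3K4me3 of 24.4. Gmps (chromosome 3, start at 63976143), the GMP synthetase, had the highest EZH2 peak of the set, 8.80, with H3K4me3 of 40.2 and N-MYC of 6.30.

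The ribose phosphate synthetases Prps1 (chromosome X, start at 140456603) and Prps2 (chromosome X, start at 167382749), which make the PRPP that both pathways consume, had low values for p300 and N-MYC. Prps1 had N-MYC of 4.47, EZH2 of 5.43, H3K4me3 of 31.5 and its nearest p300 peak 49.2 kb away. Prps2 had N-MYC of 4.92, EZH2 of 4.44, H3K4me3 of 27.6 and p300 of 3.66, the lowest p300 peak of the set. The pair thus differed by a p300 call that stood at percentile 7.87 of all genes called where it was made.

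De novo pyrimidine synthesis held both the strongest and one of the weakest N-MYC peaks. Ctps (chromosome 4, start at 120570276), which turns UTP into CTP, had an N-MYC peak of 20.9 at chr4:120569509-120570559, which ranked 4 of 5946, with H3K27ac of 18.7, p300 of 7.88, H3K4me3 of 21.9 and EZH2 of 4.85. Cad (chromosome 5, start at 31054780), the trifunctional enzyme of the first steps, had N-MYC of 9.57, H3K4me3 of 27.1 and EZH2 of 3.92, a narrow peak of 229 bp. Dhodh (chromosome 8, gene end at 109608699), the mitochondrial dehydrogenase, had N-MYC of 6.54, p300 of 6.26 and its nearest EZH2 peak 42.9 kb away. Umps (chromosome 16, start at 33967038), which completes UMP, had N-MYC of 3.12, at percentile 1.51, and EZH2 of 7.61, at percentile 78.5. Umps and Ctps stood in opposite order for the 2 factors.

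Deoxynucleotide supply had the highest median H3K4me3 of the 7 roles, 38.6, from 28.2 at Nme2 to 41.9 at Rrm1. Ribonucleotide reductase reduces ribonucleotides to deoxyribonucleotides: its large subunit gene Rrm1 (chromosome 7, start at 102441695) had N-MYC of 7.50, EZH2 of 8.01 and H3K27ac of 22.1, and its small subunit gene Rrm2 (chromosome 12, start at 24708254) had N-MYC of 2.81, EZH2 of 6.39 and H3K27ac of 7.38. The N-MYC peak of Rrm2 was the weakest of the set, with a −log10 q of 2.61 near the end of the list, whereas its p300 peak of 8.87 was at percentile 94.0. Thymidylate comes from Tyms (chromosome 5, start at 30073625), with N-MYC of 4.34 and EZH2 of 6.21, or by salvage through Tk1 (chromosome 11, start at 117826014), with EZH2 of 4.79, p300 of 4.15 and H3K4me3 of 33.9. The nearest N-MYC peak to Tk1 was 6.02 kb away with a fold enrichment of 4.32. The start of Tk1 lies 95 bases from that of Afmid on the other strand, and the summit of its H3K27ac peak, 8332 bp wide, was at −6777 bp, on the Afmid side. Dut (chromosome 2, start at 125247515), which keeps uracil out of DNA, had N-MYC of 12.1 and EZH2 of 7.81.

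The nucleoside diphosphate kinase genes Nme1 and Nme2 lie in tandem on chromosome 11, with starts at 93968272 and 93956256. Nme1 had N-MYC of 12.5, p300 of 10.7, the highest of the set, H3K27ac of 22.8, H3K4me3 of 38.6 and EZH2 of 5.88. Nme2 had a similar N-MYC peak of 11.4 with p300 of 6.19, H3K27ac of 10.5, H3K4me3 of 28.2 and no EZH2 peak. The nearest EZH2 peak to Nme2, 11.3 kb away, was the one at Nme1.

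The serine genes resembled each other in N-MYC, with 6.17 at Phgdh (chromosome 3, start at 98339969), 6.38 at Psat1 (chromosome 19, start at 15925059) and 7.0 at Psph (chromosome 5, start at 129787253), which carry out the dehydrogenase, aminotransferase and phosphatase steps in that order. EZH2 was 6.42 at Phgdh, 5.83 at Psat1 and 6.42 at Psph, and H3K4me3 ran from 34.3 to 37.5. H3K27ac set them apart, with 5.05 at Phgdh, the lowest of the set, 12.7 at Psat1 and 19.7 at Psph. The strongest Phgdh peaks of N-MYC and p300 had summits 965 and 1002 bp inside the gene, at and just beyond the edge of the window. With a window of 500 bp the N-MYC call was lost and the p300 call was kept, so another p300 peak lay nearer the start. Psph shares its promoter with Cct6a, whose start is 103 bases away on the other strand.

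Folate genes had the lowest median EZH2 of the 7 roles, 4.10. EZH2 was 4.24 at Mthfd1 (chromosome 12, start at 76255232), 4.10 at Mthfd2 (chromosome 6, start at 83317604) and 3.25 at Mthfd1l (chromosome 10, start at 3973075), and it was not called at Shmt1 (chromosome 11, start at 60811265) or Shmt2 (chromosome 10, start at 127522444). The cytosolic hydroxymethyltransferase gene Shmt1 had the weakest H3K4me3 peak of the set, 6.93, with N-MYC of 6.81 and p300 of 6.26, both above the median of all genes called. The mitochondrial Shmt2, which moves a carbon from serine to folate in the mitochondrion, had H3K4me3 of 21.0, N-MYC of 4.36 and p300 of 6.00. Peaks of EZH2 (4.11), SUZ12 (3.47) and H3K27me3 (14.9) lay 1.44, 1.54 and 1.27 kb from the Shmt2 start, just outside the window, and it was the gene of the set with the nearest Polycomb peaks. Mthfd1, the cytosolic trifunctional enzyme, had N-MYC of 8.26, and the mitochondrial enzymes had 7.68 (Mthfd2) and 12.8 (Mthfd1l). Mthfd1l combined the lowest EZH2 peak of the set with an N-MYC peak at percentile 96.1 and H3K27ac of 19.5.

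The share of genes with an EZH2 call differed between levels of H3K4me3. The 6 genes without EZH2 had a median H3K4me3 fold enrichment of 22.7 (6.93 to 34.4) and the 24 with EZH2 one of 34.3 (15.9 to 41.9), and the ranges overlap. Their N-MYC medians were 9.09 (4.36 to 15.3) and 7.0 (2.81 to 20.9), and their p300 medians 6.09 and 5.89. Among protein-coding genes with H3K4me3 and no Polycomb peak, EZH2 was called at 23.7% where the H3K4me3 fold enrichment was under 20, at 73.9% from 20 to under 30, and at 97.3% at 30 or more. The set had 2 of 4, 5 of 8 and 17 of 18 genes called in these ranges. Atic was the exception in the highest range, with H3K4me3 of 34.4 and no EZH2 call. N-MYC was called at 46.7, 70.2 and 82.0% of the same genes, and at 4 of 4, 8 of 8 and 17 of 18 of the set. p300 was called at 58.9, 88.0 and 96.7% of them, with the same counts in the set.

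Across the 23 EZH2 sites of the set the Spearman correlation of EZH2 with H3K4me3 fold enrichment was 0.868, given as a description, and it was 0.651 over 5684 genes without Polycomb peaks. Sites of 2 lists share the promoter, its base composition and its mappability. N-MYC and EZH2 gave −0.216 over 22 sites, a weak value, against 0.192 over 4550 genes.

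**Figure D3:**
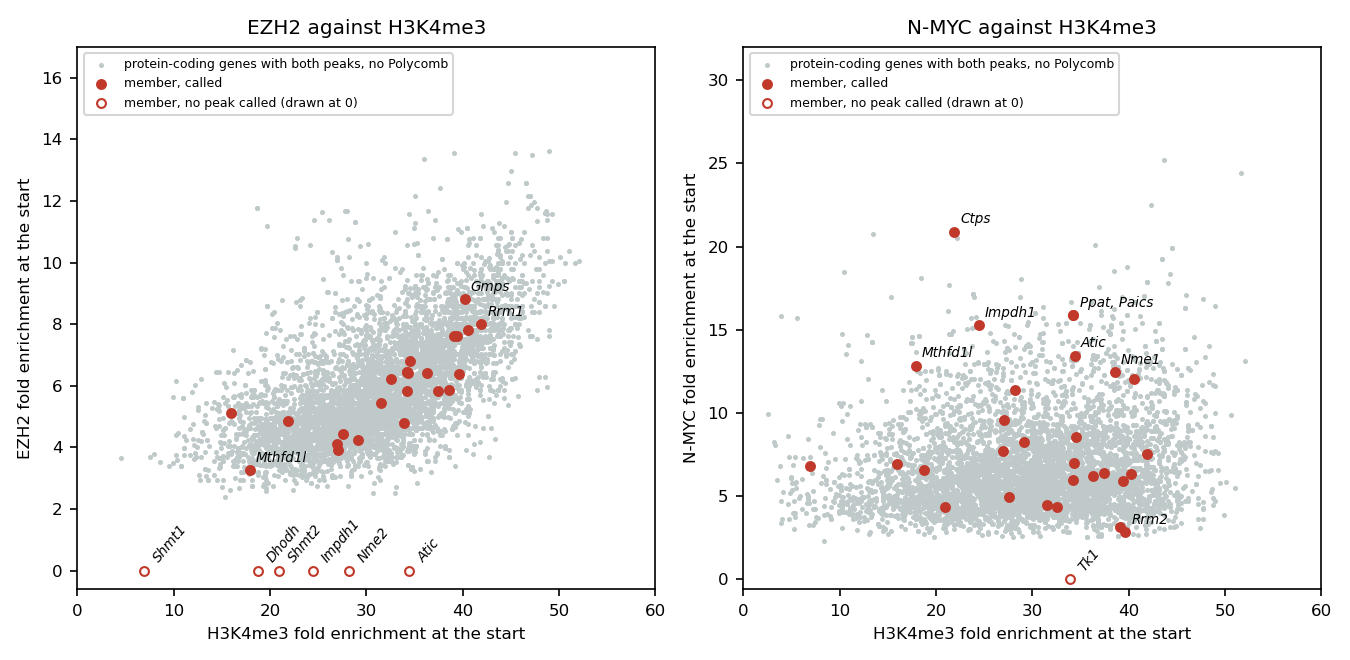
Fold enrichment of EZH2 (left) and N-MYC (right) against that of H3K4me3 at the start, with genes of the set in red, other protein-coding genes with both peaks and no Polycomb peak in grey, and genes with no call drawn as open circles at 0. EZH2 values run with H3K4me3 from Mthfd1l (3.25) to Gmps (8.80), while high N-MYC values stand over low (Ctps, 21.9) and high (Nme1, 38.6) H3K4me3.

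Peak summits were then placed on the strand of each gene. N-MYC summits lay a median of 99 bp inside the gene (quartiles 14 and 165 bp) at the 27 genes with a peak and a listed start, and 20 of the 27 were downstream of the start, against 48.6% of all genes called. p300 summits had a median of 174 bp and 22 of 27 downstream, against 46.3%. The medians over all genes called were 5 bp upstream of the start for N-MYC and 20 bp upstream for p300, so both medians lay farther into the gene for this set. H3K4me3 (median 351 bp, 25 of 28 downstream) and EZH2 (361 bp, 19 of 23 downstream) were deeper still, with 270 and 253 bp over all genes, where 83.1% and 78.5% lie downstream. The H3K27ac median was 289 bp, with 20 of 28 downstream against 70.9%. The peaks shared by Ppat and Paics count at both genes here, and their N-MYC summit was downstream of both starts.

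At genes with both peaks the EZH2 summit was downstream of the N-MYC summit in 17 of 22 cases, against 74.7% of all genes, with a median distance of 345.5 bp between the summits. The H3K4me3 summit was downstream of the N-MYC summit in 21 of 27 cases, against 77.0%. EZH2 and H3K4me3 summits were a median of 67 bp apart. The shared peaks of Ppat and Paics count at both genes in these counts and in those that follow. Their EZH2 and H3K4me3 summits were downstream of the N-MYC summit at Ppat and upstream of it at Paics. The EZH2 peak reached over the start base itself at 9 of the 24 genes called (37.5%), against 56.3% of called genes with H3K4me3 and no Polycomb peak. The N-MYC peak did so at 26 of 29 genes, against 86.2%. The peaks themselves overlapped at 22 of the 23 genes with both, all but Prps2, against 89.3% of such genes with H3K4me3 and no Polycomb peak. The EZH2 summit was inside the N-MYC peak at 14 of the 23, against 53.6%. EZH2 and N-MYC peaks thus shared bases at most of these promoters, as they did at most of the comparable genes.

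**Figure D4:**
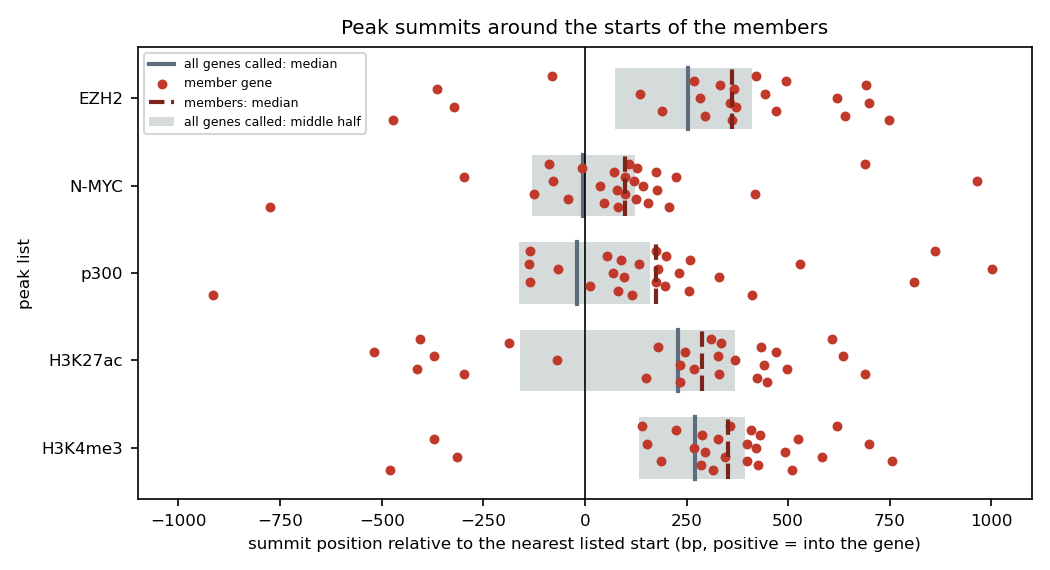
Position of the peak summit relative to the nearest listed start (x axis, bp, positive values inside the gene) for each gene of the set (red points, spread vertically for legibility) in 5 lists, with the median of the set (dashed), and the median and middle 50% of all genes called (grey). N-MYC and p300 points lie closest to the start and EZH2 and H3K4me3 points farther in. The H3K27ac summit of Tk1, at −6777 bp, is beyond the axis.

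Distances to the nearest Polycomb peaks were read for the set only, and the same distances over all genes were not computed. The nearest SUZ12 peak was a median of 134 kb from the start, from 1.54 kb at Shmt2 to 2496 kb at Prps2. The nearest H3K27me3 peak was a median of 27.9 kb away, from 1.27 kb at Shmt2 to 284 kb at Adsl. Where EZH2 was not called, its nearest peak was a median of 25.3 kb away.

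A wider list of 76 further genes for salvage, phosphorylation, degradation, folate and methionine use and transport was read in the same way, and 61 of them had a listed start. H3K4me3 was called at 53 (86.9%), N-MYC at 42 (68.9%), p300 at 40 (65.6%), EZH2 at 38 (62.3%), SUZ12 at 6 (9.84%) and H3K27me3 at 10 (16.4%). All 5 active lists without Polycomb were found at 25 of 61 (41.0%), against 73.3% of the synthesis genes and 25.4% of all genes. Among the 53 with H3K4me3 the combination was found at 47.2%, beside 48.7% of all genes with that mark. In the same 53 genes p300 was called at 75.5%, N-MYC at 79.2% and EZH2 at 66.0%, beside 77.5%, 64.8% and 74.0%. N-MYC was highest at Uck2, a uridine and cytidine salvage kinase, with 22.5, a gene picked after its value was seen. The shares with SUZ12 and H3K27me3 were below those of all genes, 12.8% and 24.3%. SUZ12 or H3K27me3 was called at 10 genes, in order of H3K27me3 fold enrichment Cda, a cytidine deaminase (12.9), Gda, a guanine deaminase (10.9), Upp1, a uridine phosphorylase (9.72), Slc6a9, a glycine transporter (8.29), and Gmpr, a GMP reductase (7.78). Lower values were those of Gldc of the glycine cleavage system (6.80), Asns, which makes asparagine (6.44), Ampd3, an AMP deaminase (5.38), Aldh1l1, a folate dehydrogenase (4.70), and Dpyd, which starts pyrimidine breakdown (4.20). Of these 10, Slc6a9 and Asns also had N-MYC peaks, of 4.09 and 5.49, beside EZH2 of 5.32 and 5.01. Neither H3K4me3 nor H3K27ac was called at 6 genes, namely Aldh1l1, Amt, Cda, Ftcd, Gldc and Upp1.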

How the data were processed

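ChIPmentation libraries of 7 antibodies from thymic lymphoma cells were read as 1 peak list each, with 2 input libraries not used here. Per the submitters' processing notes, FastQC, Bowtie2, SAMtools, MACS2 and deepTools were used with builds mm10 and GRCm38, without versions. Whether inputs served as controls or samples were pooled is not given in the sources used here. Each deposited peak has the authors' fold enrichment, which is a linear ratio. Its p-value and q-value are −log10 values as deposited, and a whole-number score that the authors deposited was not used. The smallest −log10 q was 2.00 to 2.08 over the lists. Depth per library is unknown.

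Gene starts and strands came from the RefSeq promoter table (GRCm38.p6): 28 of the 30 genes and 17492 of 21900 protein-coding genes had an entry. A peak counted when it overlapped the start ±1 kb by at least 1 bp, and the peak of highest fold enrichment stood for its list. As a check of the build, 50.0% of H3K4me3 summits lay within 1 kb of a listed start, and 3.11% with the starts moved by 10 kb. Exon structure was not used here. All 30 genes are described, with printed promoters chosen by highest and lowest N-MYC, highest EZH2 and absent N-MYC. The members and lists were chosen with earlier results of these data known. The reading step was tested on simulated data: 200 of 200 planted peaks were recovered. Computation used Python 3.11.15, numpy 2.4.6 and scipy 1.17.1.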

Additional observations from a re-analysis of the deposited data

How the results depend on the processing

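For the 14 main results (counts of genes called, median fold enrichments and the E-box count), other settings gave 144 values. The count moved by over 1.5 times in 7 of them, and the remaining 137 were within that margin or, for medians, within the 95% interval. With the start base itself required to lie in the peak, EZH2 was called at 9 genes and the 5 active lists without Polycomb were found at 7; the EZH2 calls lost this way include those of Ppat, Rrm1 and Dut. With every list limited to its 9798 most significant peaks, 14 genes had that combination, with EZH2 calls lost at 6 genes, H3K27ac calls at 7 and calls of H3K4me3 and p300 at 1 each. Background shares of that combination were not read under these settings. The window of 500 bp lost N-MYC at Phgdh and EZH2 at Prps2. A window of 2 kb gave 1 gene each for SUZ12 and H3K27me3, which was Shmt2, and reading either gene end gave 1 gene for H3K27me3, again Shmt2. CACGTG or CACGCG in place of CACGTG alone was found at 8 of 28 genes (28.6%), against 30.9% of genes with H3K4me3. The N-MYC calls at Umps and Rrm2 were lost at a q-value of at most 1e-05 and at a fold enrichment of at least 4. Leaving out Dhodh and Pfas, or the 5 genes with another start within 1 kb, was added after seeing the data and moved no value beyond these margins. The planned search of N-MYC peak sequence was not run. No paired analysis was possible because each antibody had 1 library.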
